A study of Mus musculus with 10 samples.

Results

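Genes of the p53 pathway and the cellular stress response, Trp53, Mdm2, Cdkn1a, Ccng1, Btg2, Bbc3, Atf3 and Ddit3, 8 in all, were followed through all 10 RNA sequencing libraries of the series. They were taken by gene symbol from the deposited expression tables, and all 8 of them were found among 22867 symbols. The series compared mouse embryonic stem cells (ESCs), which stand for naive pluripotency, with the epiblast-like cells (EpiLCs) derived from them, with Otx2, a homeobox gene, either mutated (Otx2-/-) or overexpressed. All lines were of 129SV strain origin. The lines R1 and E14 carry no Otx2 mutation in the labels, and the third line was Otx2-/-. Every ESC culture was grown serum-free in N2B27 with 0.8 µM PD0325901 (a MEK inhibitor), 3.3 µM CHIR99021 (a GSK3 inhibitor) and LIF. EpiLCs were obtained on fibronectin with bFGF and knockout serum replacement, and 48 h is recorded for every EpiLC library. R1 gave 2 ESC libraries, and E14 and Otx2-/- gave 1 ESC library each, beside 1 EpiLC library each of R1 without activin A, R1 with Activin A at 20 ng/ml, E14 and Otx2-/-. For E14 and Otx2-/- EpiLC the labels do not state whether activin A was present. The Otx2 gene still had 7.85 FPKM in Otx2-/- ESC, where R1 and E14 ESC had between 3.96 and 9.09, and 15.8 in Otx2-/- EpiLC, where R1 and E14 EpiLC had between 39.9 and 151. Which part of the gene the mutation removes was not given in the sources used here, so a value per gene does not check the label. The last pair of libraries came from Otx2-/- ESCs carrying tetON Otx2, kept with no doxycycline (dox) or given it. The dose and duration of dox, the promoter of the transactivator and the number of clones behind each line were not given in the sources used here.

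The transcription factor p53, the product of Trp53, is kept low by the ubiquitin ligase Mdm2, which p53 itself activates, so that the pair forms a negative feedback loop. When DNA is damaged or division is disturbed, p53 activates genes that stop the cell cycle, such as Cdkn1a, and genes that start apoptosis, such as Bbc3. Mouse ESCs are known for abundant Trp53 transcripts and for a short G1 phase. Atf3 and Ddit3 belong to a neighbouring branch, the integrated stress response, in which phosphorylation of a translation factor raises the transcription factor ATF4 and then its target genes.

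Markers of the labelled cell states were checked. The summed level of 6 naive markers lay between 1365 and 1577 FPKM in the R1 and E14 ESC libraries and between 133 and 235 in their EpiLCs, where FPKM is fragments per kilobase of transcript and per 1e6 mapped fragments. Their 4 primed markers summed to between 39.97 and 84.5 FPKM in ESC and between 388 and 476 in EpiLC. Markers of fibroblasts, primitive endoderm, trophoblast, neural cells and mesoderm were low, with no single value above 9.31 FPKM in any library. Depth, approximated from the lowest values of olfactory receptor genes, ran from about 6.5 × 1e6 fragments in E14 EpiLC to about 20.6 × 1e6 in R1 ESC replicate 2. Among the ESC libraries, replicate 1 of R1 was unlike the rest. At a change of at least 2-fold on log2(FPKM + 1) and 5 FPKM in 1 of the pair, it differed from replicate 2 in 1053 genes (11.5%) and from E14 ESC in 696 (7.71%), whereas replicate 2 and E14 ESC differed in 221 (2.47%). Results on ESCs are therefore given with and without it.

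Upstream sequences of the genes are shown because genes bound by p53 share a 10-base motif, the p53 decamer, while stress-responsive promoters often hold other short elements. RefSeq sequences on GRCm38.p6 were matched by symbol for all 8 genes, giving 11 start sites, and the 250 bases before each start were searched on both strands. The p53 decamer, a palindrome, occurred before a start of 4 of the 8 genes, namely Cdkn1a, Mdm2, Ccng1 and Trp53, and in 7.13% of 32851 such windows of all genes. The units differ, because a gene was counted when any of its starts matched, while the share is per window. Only Cdkn1a had a pair of decamers spaced by at most 13 bases, a feature of 0.0639% of the windows. That pair lies before the upstream of its 2 starts, 2790 bases from the downstream one, at chr17:29090876-29090967 on the plus strand, with 12 bases between the decamers. The 10 bases that follow the second decamer, tgacatgttc, depart from the motif at 1 position. The stretches for Mdm2 (chr10:117710905-117710974, minus strand), Ccng1 (chr11:40755432-40755501, minus strand) and Trp53 (chr11:69580254-69580323, plus strand) each hold a single decamer. Capitals mark the decamers, and all sequences read 5′ to 3′ on the gene's strand.
Cdkn1a: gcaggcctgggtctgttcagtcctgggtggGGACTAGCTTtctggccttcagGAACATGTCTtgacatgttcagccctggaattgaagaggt
Mdm2: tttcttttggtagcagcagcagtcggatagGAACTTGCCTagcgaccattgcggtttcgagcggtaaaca
Ccng1: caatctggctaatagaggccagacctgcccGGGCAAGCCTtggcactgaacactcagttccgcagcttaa
Trp53: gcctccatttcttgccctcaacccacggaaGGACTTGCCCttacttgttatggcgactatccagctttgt

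Other elements were found before 3 of the remaining genes, and none of those searched before Bbc3. Btg2 (chr1:134079284-134079351, minus strand) holds the palindromic cyclic AMP response element TGACGTCA, found in 1.55% of all windows. Atf3 (chr1:191183406-191183473, minus strand) holds TTGCATCA, the core of the C/EBP-ATF composite element to which ATF4 binds, found in 0.791%. Ddit3 (chr10:127290543-127290587, plus strand) holds the AP-1 site TGACTCA, found in 4.46%. The CArG box, the serum response element core, was found in 1.47% of windows and before none of the 8 genes, and the searched elements did not overlap each other in these stretches. A match describes letters only and shows no binding. Capitals mark the elements.
Btg2: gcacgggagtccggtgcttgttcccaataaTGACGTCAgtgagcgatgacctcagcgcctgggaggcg
Atf3: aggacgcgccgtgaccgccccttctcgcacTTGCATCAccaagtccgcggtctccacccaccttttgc
Ddit3: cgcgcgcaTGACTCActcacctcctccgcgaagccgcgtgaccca

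Differences between EpiLCs and ESCs of R1 and E14 ran in both directions among the 8 genes. Of the p53 targets Mdm2, Ccng1, Btg2, Bbc3 and Cdkn1a, only Cdkn1a had a negative fold change. Btg2 and the apoptosis gene Bbc3 rose, while the cell cycle inhibitor gene Cdkn1a and the stress gene Ddit3 fell. EpiLC and ESC were compared over 3 and 3 libraries with limma on log2(FPKM + 1), with the line as a covariate, and p-values were adjusted over all genes averaging at least 1 FPKM. Of the 8 genes 7 entered the test and 4 passed at an adjusted p under 0.05, 2 higher and 2 lower, against 20.3% of 12244 genes overall. Without R1 ESC replicate 1 all 7 tested genes passed, 4 higher and 3 lower, against 33.5% of 12283 genes. The 3 ESC and 3 EpiLC values did not overlap for 5 of the 8 genes, as for 45.2% of the genes tested, and without that library for 7, against 56.8%. In bulk RNA, a change in the share of cells expressing a gene and a change per cell cannot be told apart. The 6 fibroblast markers summed to between 2.44 and 3.33 FPKM in ESC and between 5.23 and 7.23 in EpiLC, 3 of them under 1 FPKM in every library, and their part in these differences was not tested.

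**Figure D1:**
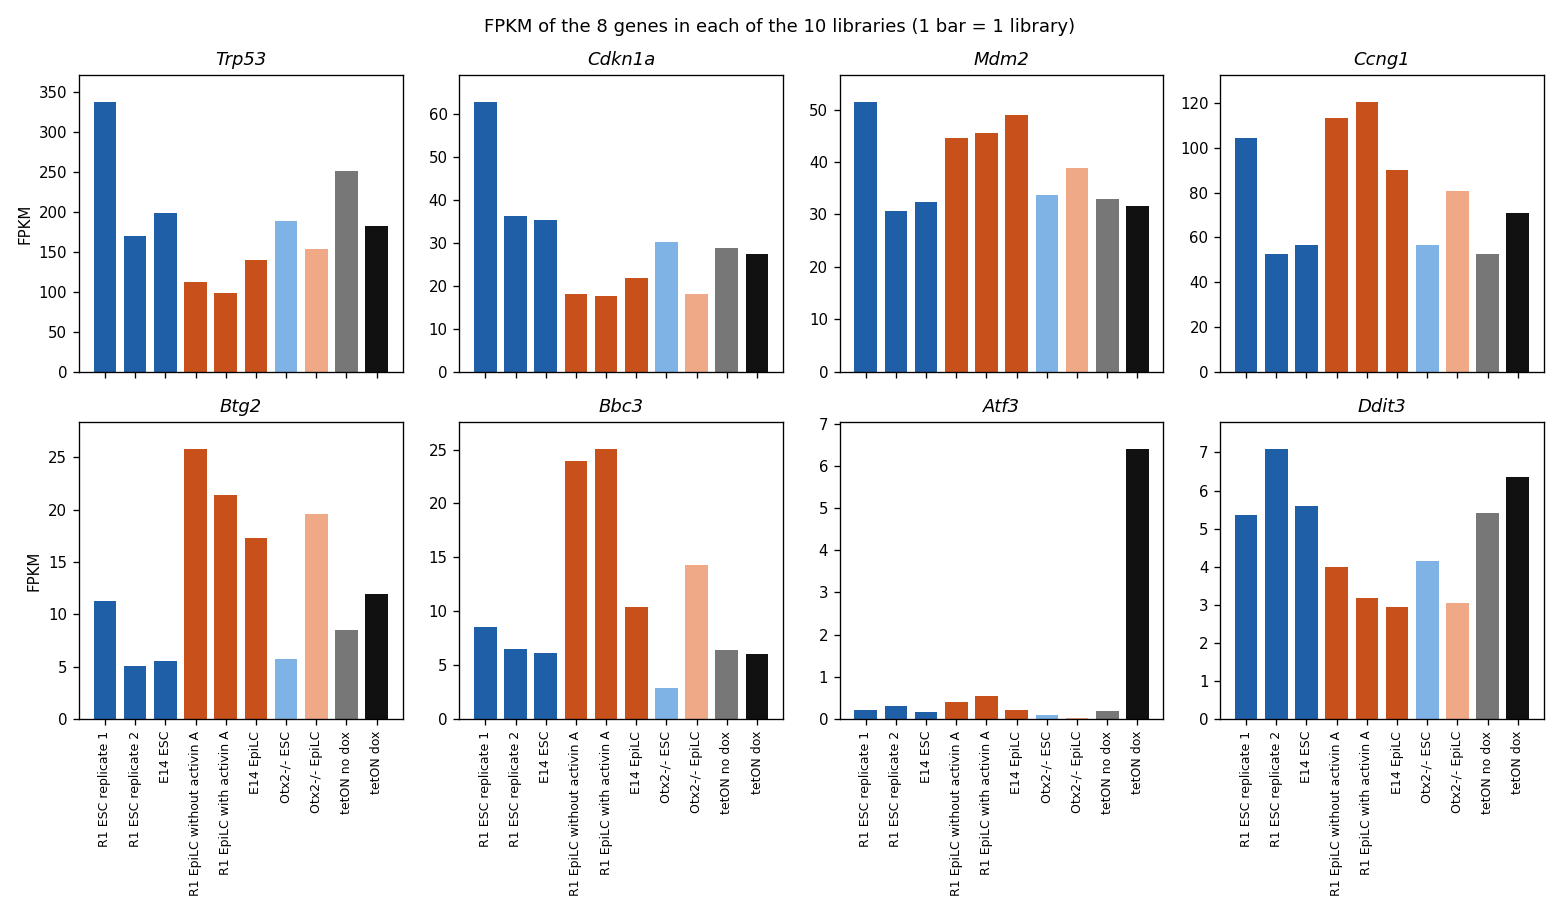
FPKM of the 8 genes, 1 bar per library, with the axis of each panel starting at 0. Dark blue bars are R1 and E14 ESC, dark orange bars their EpiLCs, light bars the Otx2-/- line, and grey and black bars the tetON line without and with dox. The first bar, R1 ESC replicate 1, is the highest of all 10 for Trp53, Cdkn1a and Mdm2, and dox stands alone for Atf3 at 6.40 FPKM.

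Trp53 lies on chromosome 11 at 69393860 to 69405375 (mm9, as for all gene positions given here). Replicates 1 and 2 of R1 ESC had 338 and 170 FPKM, and E14 ESC had 198. In EpiLC it was 113 FPKM in R1 without activin A, 98.1 with it and 140 in E14. Every ESC value was above every EpiLC value, and R1 ESC replicate 1 was far above the other ESC libraries. The mean was 236 ± 89.7 FPKM in ESC and 117 ± 21.4 in EpiLC (SD, n = 3 each). The log2 fold change of -0.95 (SE 0.31) did not pass (limma adjusted p = 0.0864). Without replicate 1 the change was smaller, -0.61 (SE 0.11), and passed (limma adjusted p = 0.0209). Per length Trp53 was the most abundant of the 8 genes in every library but R1 EpiLC, where Ccng1 was slightly above it without activin A and above it with activin A. Wrap53, which overlaps the start of Trp53 on the other strand, had between 7.32 and 24.2 FPKM. RefSeq lists a pseudogene, Trp53-ps, whose reads could be shared with Trp53, so its values carry that uncertainty.

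Mdm2, the ubiquitin ligase that marks p53 for degradation, lies on chromosome 10 at 117125960 to 117147772. R1 ESC had 51.5 and 30.7 FPKM in replicates 1 and 2, E14 ESC 32.4, and the EpiLCs had 44.5, 45.5 and 49.0 in R1 EpiLC without and with activin A and E14 EpiLC. The EpiLC values lay close together, and R1 ESC replicate 1 was above them while the other ESC libraries were below. The log2 fold change was 0.31 (SE 0.23) and did not pass (limma adjusted p = 0.369). Without replicate 1 it was 0.56 (SE 0.09) and passed (limma adjusted p = 0.0127). Over the 10 libraries Mdm2 varied least of the 8 genes, by 1.68-fold between its lowest and highest value.

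Cdkn1a encodes p21, the inhibitor of cyclin-dependent kinases through which p53 stops cells in G1, and lies on chromosome 17 at 29227930 to 29237667. R1 ESC had 62.7 and 36.2 FPKM in replicates 1 and 2, and E14 ESC had 35.3. In EpiLC it had 18.1 FPKM in R1 without activin A, 17.6 with it and 21.9 in E14. All ESC values were above all EpiLC values. The mean fell from 44.8 ± 15.6 to 19.2 ± 2.36 FPKM (SD, n = 3 each), a difference of -1.14 on the log2 scale (SE 0.27, limma adjusted p = 0.0380). Without replicate 1 the difference was -0.85 (SE 0.11, limma adjusted p = 0.00954). The call ended without R1 ESC replicate 2 (limma adjusted p = 0.0569) and without any one of the E14 and R1 EpiLC libraries (0.0767 to 0.162).

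Ccng1 encodes cyclin G1, a p53 target that recruits a phosphatase to Mdm2, and lies on chromosome 11 at 40562053 to 40568788. R1 ESC had 104 and 52.5 FPKM in replicates 1 and 2, E14 ESC 56.6, and the EpiLCs had 113, 121 and 90.3 in R1 EpiLC without and with activin A and E14 EpiLC. For this gene R1 ESC replicate 1 was within the EpiLC range, while the other ESC libraries were below it. The log2 fold change of 0.66 (SE 0.27) did not pass (limma adjusted p = 0.145), and without replicate 1 it was 0.94 (SE 0.14) and passed (limma adjusted p = 0.0124). Ccng1 passed under 2 of 11 alternatives, the other being quantile scaling with all 6 libraries.

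Btg2, an antiproliferative gene induced by p53 and by growth factors, lies on chromosome 1 at 135971441 to 135975732 and had the largest fold change of the 8 genes in the comparison of EpiLC with ESC, except that Bbc3 exceeded it without either E14 library. R1 ESC had 11.3 and 5.06 FPKM in replicates 1 and 2, and E14 ESC had 5.59. In EpiLC it had 25.8 FPKM in R1 without activin A, 21.4 with it and 17.3 in E14, all above every ESC value. The mean rose from 7.31 ± 3.44 to 21.5 ± 4.25 FPKM (SD, n = 3 each), by 1.49 on the log2 scale (SE 0.28, limma adjusted p = 0.0222). Without replicate 1 the rise was 1.78 (SE 0.17, limma adjusted p = 0.00510). The call ended without any one of the E14 and R1 EpiLC libraries, with limma adjusted p between 0.0828 and 0.107.

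Bbc3 encodes PUMA, a BH3-only protein that triggers apoptosis by freeing BAX and BAK, and lies on chromosome 7 at 16894931 to 16903683. R1 ESC had 8.57 and 6.50 FPKM in replicates 1 and 2, and E14 ESC had 6.10. In EpiLC it had 23.9 FPKM in R1 without activin A, 25.05 with it and 10.4 in E14. All EpiLC values were above all ESC values, and E14 EpiLC was well below both R1 EpiLC libraries. The mean rose from 7.06 ± 1.33 to 19.8 ± 8.16 FPKM (SD, n = 3 each), by 1.29 on the log2 scale (SE 0.23, limma adjusted p = 0.0197). Of the 8 genes Bbc3 passed under the most alternatives, 9 of 11. The exceptions left out either R1 EpiLC library, with limma adjusted p = 0.105 without the one lacking activin A and 0.0957 without the other.

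Ddit3 encodes CHOP, a transcription factor of the unfolded protein and amino acid stress responses. R1 ESC had 5.35 and 7.09 FPKM in replicates 1 and 2, E14 ESC 5.59, and the EpiLCs had 3.997, 3.17 and 2.94 in R1 EpiLC without and with activin A and E14 EpiLC. All ESC values were above all EpiLC values, and replicate 1 was the lowest of the ESC libraries here. The log2 fold change was -0.68 (SE 0.17, limma adjusted p = 0.0436), and -0.79 (SE 0.13, limma adjusted p = 0.0163) without replicate 1. The call ended under median-ratio scaling (-0.61, limma adjusted p = 0.0758), with no filter on low values (limma adjusted p = 0.0826) and without any one of the other 5 libraries (0.0970 to 0.195). The E14 EpiLC value rests on about 17 fragments. The deposited position of Ddit3, chromosome 10 at 126727848 to 126748842, is identical to that of Mars. Mars had 101, 95.3 and 77.8 FPKM in R1 ESC replicates 1 and 2 and E14 ESC, against 47.0, 40.9 and 54.4 in R1 EpiLC without and with activin A and E14 EpiLC. Mars was thus also lower in each EpiLC, its part in the Ddit3 value was not tested, and reads of the overlapping genes cannot be told apart where strand is not recorded.

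Atf3, a stress-induced repressor of the ATF family on chromosome 1 at 192994175 to 193007212, was too low to be tested. Its values ran from 0.161 to 0.306 FPKM in R1 and E14 ESC and from 0.213 to 0.542 in their EpiLCs, and the ranges overlapped. Otx2-/- ESC had 0.105 FPKM and Otx2-/- EpiLC 0.0220. The R1 and E14 values correspond to between about 2.8 and 17 fragments per library. Fitted with no filter on low values, its log2 fold change was 0.17 (SE 0.071, limma adjusted p = 0.166).

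**Figure D2:**
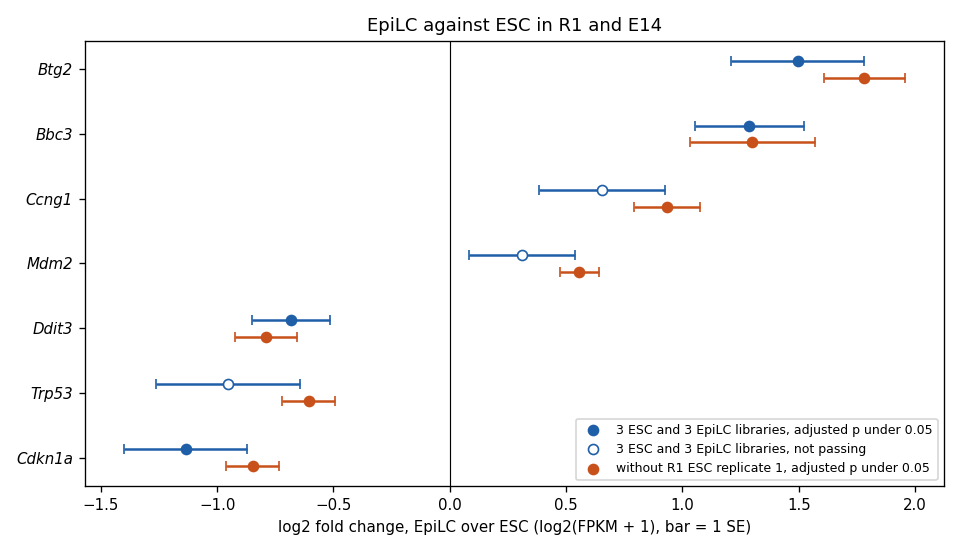
Log2 fold change of EpiLC over ESC in R1 and E14 on the log2(FPKM + 1) scale for the 7 genes tested, with 1 SE. Blue shows all 6 libraries and orange the fit without R1 ESC replicate 1, filled points passed at an adjusted p under 0.05. In the orange fit all 7 points are filled, with Btg2 farthest right at 1.78 and Cdkn1a farthest left at -0.85.

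By line, 7 of the 8 genes had the same sign of difference between EpiLC and ESC in R1, E14 and Otx2-/-, and Atf3 was the exception. The share of all genes with the same sign in these lines was not counted, so this describes the 8 genes only. Btg2 was nearly alike in size, at log2 differences of 1.51 in R1, 1.47 in E14 and 1.61 in Otx2-/-. Bbc3 differed more in size, at 1.59, 0.68 and 1.96. Cdkn1a lay at -1.37, -0.67 and -0.70, and Trp53 at -1.18, -0.50 and -0.30. The R1 values include replicate 1. The test of E14 against R1 responses passed for 0 of the 7 genes, with 0 at an unadjusted p under 0.05 (limma, 0.327% of all genes passed). Without R1 ESC replicate 2, still 0 passed, but 5 had an unadjusted p under 0.05. For Bbc3 the difference with all 6 libraries was -0.91 (SE 0.34, limma adjusted p = 0.914). In 1-against-1 comparisons by the 2-fold and 5 FPKM rule, Btg2 alone was counted in E14 (16.1% of genes), and Btg2 and Bbc3 in Otx2-/- (15.5%).

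With 1 Otx2-/- library against 3 of R1 and E14, none of the 7 genes tested passed in ESC or EpiLC. In Otx2-/- EpiLC, Trp53 had 154 FPKM, Mdm2 38.8, Cdkn1a 18.1, Ccng1 80.6, Btg2 19.6, Bbc3 14.3 and Ddit3 3.05. Cdkn1a, Btg2, Bbc3 and Ddit3 lay within the range of the R1 and E14 EpiLCs, Trp53 above it, and Mdm2 and Ccng1 below it. The share of all genes with an Otx2-/- EpiLC value outside that range was not counted. In EpiLC 0 of 7 passed, and 0 had an unadjusted p under 0.05 (limma, 0.163% of all genes passed). The log2 fold changes ran from -0.41 (SE 0.40) for Ccng1 to 0.40 (SE 0.41) for Trp53, and the largest SE was 0.49, for Bbc3.

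In Otx2-/- ESC the levels were 189 FPKM for Trp53, 33.6 for Mdm2, 30.1 for Cdkn1a, 56.7 for Ccng1, 5.75 for Btg2, 2.92 for Bbc3 and 4.15 for Ddit3. Bbc3, Cdkn1a and Ddit3 were below all 3 R1 and E14 ESC libraries, and the other 4 lay within their range. The share of all genes with an Otx2-/- ESC value outside that range was not counted. The largest difference was that of Bbc3, -1.03 (SE 0.49, limma adjusted p = 1.00, unadjusted p = 0.0791). Here too 0 of 7 passed, and 0 had an unadjusted p under 0.05 (limma, 0.139% of all genes passed). All 7 fold changes were negative, but without R1 ESC replicate 1 those of Trp53, Mdm2, Ccng1 and Btg2 turned positive, at 0.042, 0.091, 0.056 and 0.094. The responses of Otx2-/- and of the other lines differed for 0 of 7 genes, with 0 at an unadjusted p under 0.05 (limma, 0.277% of all genes passed).

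Induction of the Otx2 transgene went with a high Atf3 level. Atf3 had 0.203 FPKM without dox and 6.40 with dox, a ratio of 31.6, and no other library exceeded 0.542. The values rest on about 6.1 and 116 fragments. The log2 ratio of (FPKM + 1) was 2.62, and 4.42 with a pseudocount of 0.1. It ranked 106 among the 9304 genes at 5 FPKM in 1 of the pair. Atf3 met that limit only through its dox value, so its rank is not separate support. Of the 9304 genes, 12.1% differed by at least 2-fold on the same scale, 6.42% higher and 5.71% lower with dox. These are single libraries, so the difference has no replicate check.

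The other 7 genes differed between dox and no dox by log2 ratios between -0.45 and 0.45. Trp53 had 183 FPKM with and 251 without dox, Mdm2 31.6 and 32.9, and Cdkn1a 27.3 and 28.7. Ccng1 had 70.7 and 52.6, Btg2 12.0 and 8.53, Bbc3 6.01 and 6.37, and Ddit3 6.36 and 5.41. The dox library was below every R1 and E14 EpiLC for Mdm2, Ccng1, Btg2 and Bbc3, and above each of them for Trp53, Cdkn1a and Ddit3. The share of all genes with a dox value outside the range of these EpiLCs was not counted. The transgene product Otx2 had 1059 FPKM with and 45.8 without dox. Other markers differed too: the naive factor gene Klf4 had 22.8 FPKM with and 73.2 without dox, and 4 primitive endoderm markers summed to 5.20 FPKM with dox, the highest of the 10 libraries, with 2 of the 4 under 1 FPKM in every library. Their part in the Atf3 level was not tested.

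Against Otx2-/- ESC without a transgene, the tetON cells without dox had 251 against 189 FPKM of Trp53 and 6.37 against 2.92 of Bbc3. The log2 ratio of Bbc3 was 0.91, the largest of the 8 genes, and none of them reached 2-fold on log2(FPKM + 1), where 2.7% of genes did. The no-dox library is shared by both of these comparisons. Its Otx2 level was itself raised, at 45.8 FPKM against 7.85 in Otx2-/- ESC without a transgene and 39.9 in E14 EpiLC. The no-dox cells thus do not stand for absent Otx2 transcripts, and the part of this level in the differences was not tested.

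Activin A made little difference to the 8 genes in R1 EpiLC. Log2 ratios ran from -0.26 for Ddit3 and Btg2 to 0.14 for Atf3, and none reached 2-fold, where 2.14% of genes did. The R1 ESC replicates, by contrast, differed in the same direction for 6 of the 8 genes. The log2 ratio of replicate 2 to replicate 1 was -1.02 for Btg2, -0.98 for Trp53 and Ccng1, -0.78 for Cdkn1a, -0.73 for Mdm2 and -0.35 for Bbc3, against 0.35 for Ddit3 and 0.12 for Atf3. Only Btg2 reached 2-fold, where 11.5% of genes did, and the median over genes averaging at least 1 FPKM was -0.14 for all genes and -0.78 for the 7 of the 8 genes. E14 ESC lay within 0.30 of replicate 2 for each of the 8 genes.

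**Figure D3:**
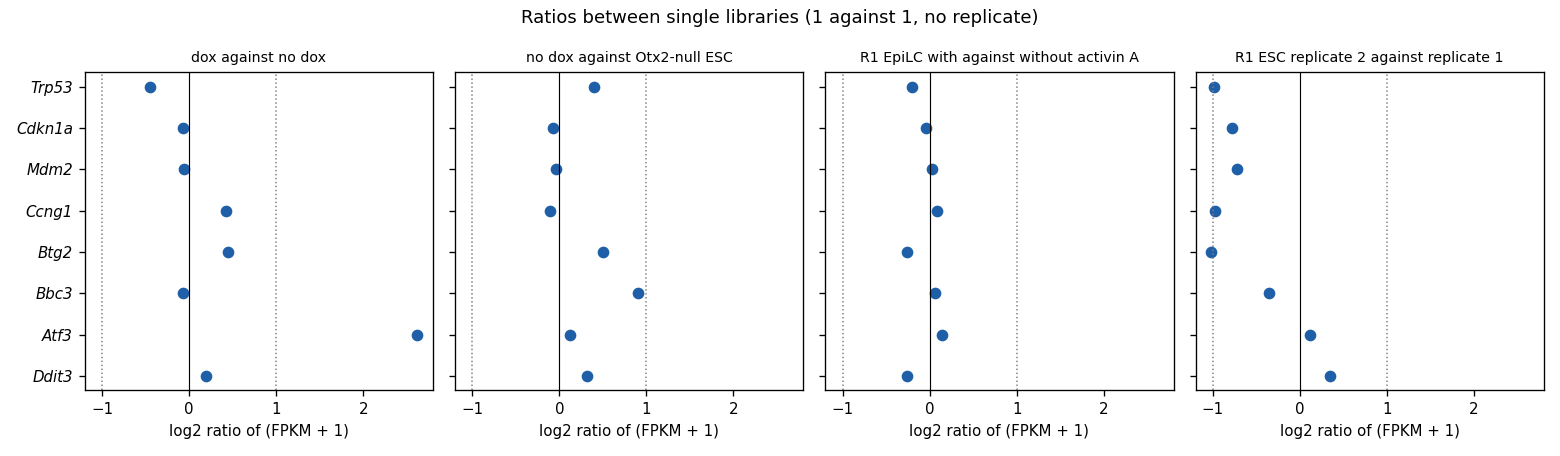
Log2 ratio of (FPKM + 1) of the 8 genes in 4 pairs of single libraries, with dotted lines at 2-fold in either direction. Otx2-null stands for Otx2-/-, and dox and no dox are the tetON line. Atf3 with dox, at 2.62, is the only point beyond the right line, and 6 of 8 points in the last panel lie left of 0.

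Further genes of the pathway were counted in the same fit of EpiLC against ESC. Over all genes tested 9.73% rose and 10.6% fell, with a median log2 fold change of -0.09. Without R1 ESC replicate 1, 15.4% rose and 18.1% fell (median -0.035). List counts without that library, here and below, stand against these larger shares. Of 11 tested regulators of p53, 1 rose and 0 fell (median -0.15, but 0.020 under quantile scaling and 0.065 without R1 ESC replicate 1). It was Trp53bp1, the chromatin protein 53BP1 of double-strand break repair, at 1.01 (SE 0.16, limma adjusted p = 0.0144). The Mdm2 relative Mdm4, at 53.1 ± 6.92 FPKM in ESC and 48.7 ± 13.2 in EpiLC (SD, n = 3 each), lay at -0.15 and did not pass. Of 20 further p53 targets of arrest and repair, 2 rose and 0 fell (median 0.23): the growth arrest gene Gadd45a at 1.19 and the translesion polymerase gene Polk at 0.69. Without R1 ESC replicate 1, 6 rose and 1 fell (median 0.39).

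Of 8 tested death genes among the p53 targets, 3 rose and 0 fell (median 0.43). Pmaip1, which encodes the BH3-only protein NOXA, rose from 3.55 ± 1.78 to 25.3 ± 2.30 FPKM (SD, n = 3 each; log2 fold change 2.62, SE 0.26, limma adjusted p = 0.00481). Perp, a p53 target of cell junctions, rose by 1.12, and the death receptor gene Tnfrsf10b by 0.88. Bax, the pore-forming protein downstream of PUMA, was at 202 ± 44.3 and 154 ± 9.28 FPKM (SD, n = 3 each) and did not pass (-0.37, limma adjusted p = 0.251). Of 8 tested genes of the BCL2 family outside the p53 targets, 1 rose and 0 fell (median 0.33), and under quantile scaling 1 fell as well. It was the BH3-only gene Bcl2l11, which encodes BIM, from 3.83 ± 0.76 to 15.9 ± 2.63 FPKM (SD, n = 3 each; 1.80, limma adjusted p = 0.00390). With R1 ESC replicate 1 left out, 4 death genes and 2 of the BCL2 family rose and 0 fell, and the BCL2 family median was 0.19.

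Paralogs of the 8 genes were also counted, and 2 of 8 rose and 0 fell (median -0.33). Cdkn1c, which encodes the kinase inhibitor p57, rose from 4.09 ± 1.28 to 18.7 ± 8.57 FPKM (SD, n = 3 each; 1.90, limma adjusted p = 0.00709), while its relative Cdkn1a fell. Btg3, a relative of Btg2, rose by 0.80. Without R1 ESC replicate 1, 3 rose and 2 fell.

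The integrated stress response fell in part together with Ddit3. Of 15 genes tested, 5 fell and 2 rose (median -0.67), and 9 fell and 2 rose without R1 ESC replicate 1. Asns, the asparagine synthetase gene and a target of ATF4, fell from 355 ± 95.6 to 78.5 ± 7.05 FPKM (SD, n = 3 each; -2.13, SE 0.22, limma adjusted p = 0.00501). Atf4 itself fell from 96.7 ± 30.2 to 34.6 ± 5.21 FPKM (-1.42, limma adjusted p = 0.0223), and Atf5, a related factor, fell by 1.47. In the opposite direction Ddit4, an inhibitor of mTOR signalling induced by stress and hypoxia, rose from 15.8 ± 2.56 to 223 ± 110 FPKM (SD, n = 3 each; 3.59, SE 0.33, limma adjusted p = 0.00420).

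Further stress lists were counted as well. Of 13 endoplasmic reticulum stress genes, the chaperone cofactor gene Sdf2l1 fell by 0.78 and Edem1 rose by 0.49 (median -0.27, and -0.090 under quantile scaling). Without R1 ESC replicate 1, 5 fell and 1 rose (median -0.16). Of 8 immediate early genes Dusp1, a MAP kinase phosphatase gene, rose by 1.53, and Ier2 (-1.22) and Nr4a1 (-0.81) fell (median 0.23). Of 7 heat shock genes Hspb1, a small heat shock protein gene, fell by 1.58, from 804 ± 77.8 to 272 ± 57.7 FPKM (SD, n = 3 each; median of the list -0.33). For the immediate early and heat shock genes the counts were the same without replicate 1, while the heat shock median was then -0.067, and -0.13 under quantile scaling.

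**Figure D4:**
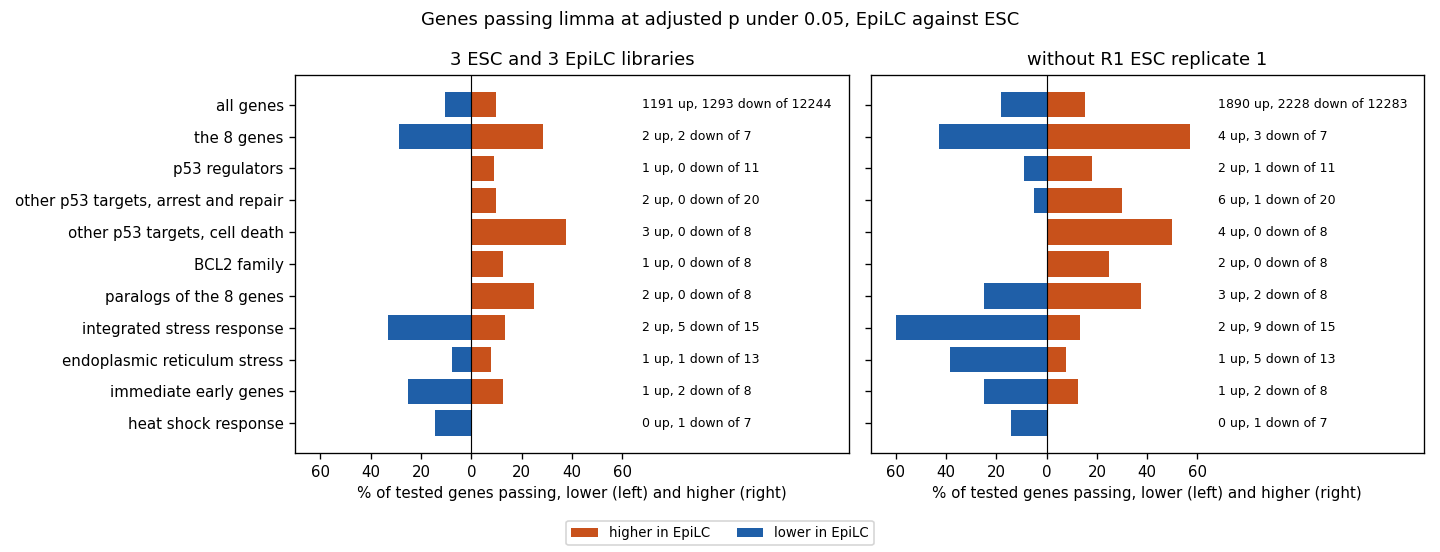
Share of tested genes passing at an adjusted p under 0.05 in the comparison of EpiLC with ESC, higher to the right and lower to the left, for all genes, the 8 genes and 9 further lists. The left panel uses all 6 libraries and the right panel leaves out R1 ESC replicate 1. Death genes appear only on the right side in both panels, 3 and 4 of 8, and the integrated stress response mostly on the left, 5 and 9 of 15.

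With dox, members of these lists were counted by the rule of 2-fold on log2(FPKM + 1) and 5 FPKM, which 6.42% of genes passed as higher and 5.71% as lower. Those named here were chosen after their values were seen. Of 17 arrest and repair targets 0 were higher and 4 lower (Gadd45a, Plk3, Fdxr and Sfn), with a median log2 ratio of -0.08 against -0.03 for all genes. Sfn had 3.46 FPKM with dox, 10.6 without it and 3.43 in Otx2-/- ESC without a transgene, so dox was not below the latter. In the same order Gadd45a had 4.48, 10.7 and 5.91, Plk3 7.80, 17.3 and 13.95, and Fdxr 3.45, 10.3 and 6.997. For Gadd45a, Plk3 and Fdxr the dox value was below both others, while the no-dox value was the highest for each gene. Of 14 integrated stress response genes Ddit4, at 61.6 against 11.5 FPKM, and Nupr1, at 24.0 against 9.47, were higher and 0 lower, while Atf4 had 51.2 against 71.9. Of 6 immediate early genes Dusp1 and Nr4a1 were lower and 0 higher, and of 5 BCL2 family genes Bid was lower, at 12.7 against 26.9 FPKM, and 0 higher. Jdp2, the closest paralog of Atf3, was lower at 1.68 against 6.90 FPKM, and Cdkn1c higher at 12.5 against 5.46. No gene of the p53 regulator, death, endoplasmic reticulum or heat shock lists passed this rule. The regulator gene Sirt1 came near it, at 16.8 against 32.5 FPKM, a log2 ratio of -0.91 on that scale. So did the death gene Perp, at 6.42 against 3.18 FPKM (0.83), and the heat shock gene Hsp90aa1, at 1113 against 1940 (-0.80).

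Across the 10 libraries some pairs of the 8 genes varied together, described here by Pearson's r of log2(FPKM + 1). No grouping was computed, and the pairs named were picked from all pairs. The libraries share the contrast of ESC with EpiLC, so these values are descriptions. Btg2 and Bbc3 had r = 0.87, Btg2 and Ccng1 0.87, and Ccng1 and Mdm2 0.89. Mdm2 was less close to Btg2 (0.70) and Bbc3 (0.64). Trp53 and Cdkn1a had r = 0.87, and 0.77 without R1 ESC replicate 1. Of opposite sign, Cdkn1a and Btg2 had r = -0.67, and -0.97 without R1 ESC replicate 1. Trp53 and Mdm2 moved from -0.18 to -0.80 on leaving that library out. Atf3, set by the dox library, lay between -0.28 and 0.38 with the other genes.

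For the 7 genes averaging at least 1 FPKM, the most similar profiles were sought among 8594 genes averaging at least 5 FPKM. Trp53 was closest to the splicing gene Tfip11 (r = 0.995, n = 10), Ctnnbl1 (0.99) and Ppp4c (0.99), and Cdkn1a to the catenin gene Ctnna1 (0.99), Rnf4 (0.99) and Napepld (0.98). Mdm2 was closest to Aqr (0.98), G6pdx (0.97) and Nfrkb (0.97). Ccng1 was closest to Apaf1, the apoptosome gene (0.97), and Ercc5, a nucleotide excision repair gene (0.97), then Gne (0.96). Btg2 was closest to Ddr1 (0.98), Rlim (0.97) and Klc3 (0.97), Bbc3 to the MAX-binding repressor gene Mxi1 (0.98), Fam103a1 (0.97) and Carhsp1 (0.96), and Ddit3 to Pigyl (0.96) and Ddost (0.93). Without R1 ESC replicate 1 each of these values was at least 0.94.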

How the data were processed

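RNA was selected as polyadenylated RNA and primed with random hexamers, and strand was not described as recorded, per the labels' protocols. Values deposited by the authors are in FPKM for each gene and were made with TopHat and Cufflinks on mm9, per the submitters' processing notes; versions and annotation were not given in the sources used here. The table of each library held 23112 entries. From these, 17 exact repeats were dropped and 228 entries sharing a symbol were summed. Moderated two-sided tests with a mean-variance trend (limma 3.58.1, R 4.3.3) were run on log2(FPKM + 1) of all genes averaging at least 1 FPKM, with Benjamini-Hochberg adjustment, and the script was tested on simulated data. A fold change on this scale understates changes of low genes. EpiLC against ESC used 6 libraries of R1 and E14 with a line term. Comparisons with Otx2-/- used 8 libraries, the lone library being assumed to vary like the others. The labels' protocol describes independent biological replicates of each state, but only R1 ESC has replicates of 1 line and treatment, and p-values reflect only how far these libraries differ. Pairs of single libraries have no test. Approximate fragments multiply FPKM, the longest protein-coding GENCODE M21 transcript and the approximate depth, and are rough. The genes and lists were chosen with earlier results of these data known. Named list genes were at most 4 per list with the largest changes past the threshold; Mdm4, Bax and genes of the dox comparison were added after their values were seen. For each gene averaging at least 1 FPKM the 3 most similar profiles were sought, and 1 of these is not reported here. Pidd, from the death list, was not matched by symbol. Alternatives were a pseudocount of 0.1, no filter, quantile and median-ratio scaling, no line term, libraries of one state, and leaving out each library.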

Additional observations from a re-analysis of the deposited data

How the results depend on the processing

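The 7 genes tested in EpiLC against ESC kept their direction under every alternative run, but calls depended on scaling and on single libraries. With all 6 libraries 4 passed. Quantile scaling gave 3 higher and 2 lower, where 1397 of all genes rose and 1365 fell. Median-ratio scaling gave 2 higher and 1 lower, where 1370 rose and 1169 fell. When 1 library was left out, between 0 and 7 of the 7 genes passed. That count was 7 without R1 ESC replicate 1 and 2 without replicate 2. It was 1 without either E14 library and 0 without either R1 EpiLC library. In each fit lacking an R1 EpiLC library 4 of the 7 genes had an unadjusted p under 0.05 (limma), and 5 with all 6 libraries. Over all genes that number was 2920 without the one with activin A, 2729 without the other and 4509 with all 6. Calls over all genes numbered 2484, and between 398 and 4118 when 1 library was left out. Fewer libraries leave fewer degrees of freedom; why leaving out replicate 1 gave more calls was not tested. In the comparisons with Otx2-/- and of E14 with R1 responses, 0 of the genes passed under any alternative run. Calls over all genes there went from 20 to 59 for Otx2-/- EpiLC, from 17 to 34 for Otx2-/- ESC and from 34 to 55 for the Otx2-/- response with no filter on low values, to 42 for Otx2-/- EpiLC and 26 for Otx2-/- ESC without E14 EpiLC, and to 37 for Otx2-/- ESC with libraries of that state only. For the E14 response they went from 40 to 17 with a pseudocount of 0.1 and ranged from 0 to 127 when 1 library was left out. In pairs, a pseudocount of 0.1 took 1 gene (Bbc3) past 2-fold between no dox and Otx2-/- ESC, and quantile or median-ratio scaling left 0 between the R1 ESC replicates.

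Fold changes that did not pass changed sign as follows, and the cause was not tested. Leaving out 1 library at a time in Otx2-/- EpiLC, Btg2 ranged from -0.25 to 0.027 and Cdkn1a from -0.13 to 0.022. In Otx2-/- ESC, Btg2 ranged from -0.41 to 0.094, Ccng1 from -0.43 to 0.056, Mdm2 from -0.27 to 0.091 and Trp53 from -0.45 to 0.042, each positive without R1 ESC replicate 1. In the Otx2-/- response, Btg2 ranged from -0.20 to 0.31, Ccng1 from -0.46 to 0.026 and Mdm2 from -0.34 to 0.021. In the E14 response, Btg2 ranged from -0.54 to 0.47, Ccng1 from -0.48 to 0.50 and Ddit3 from -0.27 to 0.084. There Ccng1 lay at -0.15 and Ddit3 at 0.030 under quantile scaling, and Ccng1 at -0.058 under median-ratio scaling. No paired analysis was possible because only the R1 ESC libraries carry replicate numbers. Fits of the E14 response without an E14 library, and of the Otx2-/- comparisons without the library concerned, cannot be made.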
